A study of Mus musculus with 19 samples.

Results

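The 10 genes that encode the chains of the interstitial collagens I, III, V, VI and XIV (Col1a1, Col1a2, Col3a1, Col5a1, Col5a2, Col5a3, Col6a1, Col6a2, Col6a3 and Col14a1) were followed in mouse hepatic stellate cells (HSCs) during 96 h of culture. They were chosen by name, each Ensembl identifier in the count matrix being matched to its mouse symbol. All 10 were found among 55487 genes and all 10 were among the 15138 genes kept by the filter on low counts. The HSCs were taken from the livers of healthy Balb/c males, 23 to 24 weeks of age, and were sorted on their ultraviolet positivity, the autofluorescence of their retinoid droplets. They were either collected at once (0 h, n = 2) or sorted onto collagen-coated 24-well plates in Dulbecco's modified Eagle's medium with 10% fetal bovine serum, with a change of medium at 3 h and at 24 h. Cultured cells were collected at 3, 6, 12, 18 and 96 h (n = 3 each) and at 24 h (n = 2), without any further treatment. Each of the 19 samples represented 2 technical repeats, and the titles number them 1 to 3. Samples are named by these replicate numbers, and the labels give 1 isolation date for all samples of replicates 1 and 3 and another for all samples of replicate 2.

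Collagens are built from 3 polypeptide chains wound into a helix. Collagen I, made of Col1a1 and Col1a2 chains, and collagen III, made of Col3a1 chains alone, form the bulk of the scar fibrils in fibrotic liver, and collagen V is built into those fibrils and helps to start them. Collagen VI forms beaded microfilaments around cells, and collagen XIV is a fibril-associated collagen that sits on the fibril surface. HSCs store vitamin A when quiescent and become matrix-producing myofibroblasts upon liver injury or upon culture on a stiff surface.

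RNA was measured with a 3' tag method (QuantSeq FWD), which reads 1 end of each transcript, so levels are given as library-scaled counts (CPM) after scaling by the trimmed mean of M-values (TMM), and levels of different genes were not ranked against each other. Total counts per sample ran from 2073171 to 7690892, with a median of 4954915. A library with no count of a gene allowed up to 0.39 to 1.51 CPM (3 counts), and this floor covers counting error only, since the reads carry no molecular identifiers. All 15 HSC markers checked, among them Lrat, Reln and Des, had counts in at least 1 of the 0 h samples, which is what the label says of these cells. Gfap ran from 0 to 17.3 CPM there. Their summed level was 17840 CPM at 0 h (16110 to 19570) and 1290 CPM at 96 h (1179 to 1373). Gfap was at 0 from 6 h onward, and Angptl6 and Ngfr from 18 h. Of the 15, 12 were lower at 96 h than at 0 h, beside 5.03% of all genes tested, while Des averaged 123 CPM at 0 h and 112 CPM at 96 h.

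At 12 h, 9 of the 10 interstitial collagen genes were lower than at 0 h, beside 9.1% of all genes tested, while Col5a2 was not. Of the 10, 6 were higher at 96 h than at 12 h, beside 6.96% of all genes tested. These were Col1a1, Col1a2, Col3a1, Col5a1 and Col6a1, and also Col5a2, which had not fallen by 12 h. The lower Col6a2 at 12 h and the higher Col6a1 at 96 h did not pass in every fit that left out 1 sample. Counts on the 10 genes made up 0.62% ± 0.0649 of all counts at 0 h (SD, n = 2) and 0.574% ± 0.115 at 3 h (n = 3). The share was 0.323% ± 0.0348 at 6 h, 0.125% ± 0.0286 at 12 h and 0.116% ± 0.0142 at 18 h (n = 3 each). It was 0.144% ± 0.0014 at 24 h (n = 2) and 0.413% ± 0.00661 at 96 h (n = 3). All samples from 6 to 24 h lay below both 0 h samples, and the 96 h samples lay between the 24 h samples and the 0 h samples. Which collagens made up these counts also changed. Col1a1 took 4.48% ± 2.79 of the counts on the 10 genes at 0 h and 35.1% ± 5.12 at 96 h, while Col14a1 took 33.9% ± 5.99 and 3.3% ± 0.121.

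**Figure D1:**
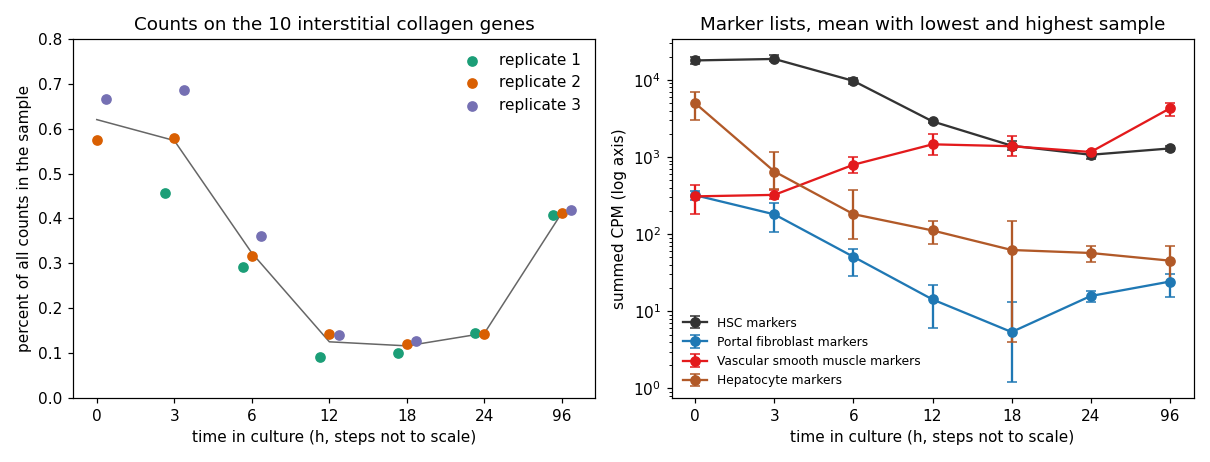
Left, the percent of all counts that fell on the 10 interstitial collagen genes in each sample by time in culture, with the mean as a line; samples lie at 0.574 to 0.666% at 0 h, at 0.0918 to 0.142% at 12 h and at 0.407 to 0.42% at 96 h. Right, the summed CPM of 4 marker lists on a log axis, as the mean with the lowest and the highest sample; HSC and portal fibroblast markers fall while vascular smooth muscle markers rise to 4256 CPM at 96 h.

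Markers of other cell types also changed with time in culture, where 9.1% of all genes tested were lower at 12 h than at 0 h. Hepatocyte markers summed to 4958 CPM at 0 h (2988 to 6929), 112 CPM at 12 h and 45.4 CPM at 96 h, and 6 of 7 were lower at 12 h than at 0 h. Kupffer cell and leukocyte markers summed to 372 CPM at 0 h (329 to 415), 260 CPM at 3 h, 14.3 CPM at 12 h and 15.9 CPM at 96 h, and 4 of 8 were lower at 12 h than at 0 h. Sinusoidal endothelial markers summed to 629 CPM at 0 h (464 to 794), 1298 CPM at 3 h (687 to 2382), 155 CPM at 12 h and 38.6 CPM at 96 h (2.86 to 103). Of these, 0 of 6 were called lower at 12 h than at 0 h. At 96 h against 0 h, 1 of 6 was lower, beside 5.03% of all genes tested. Portal fibroblasts, the other collagen-producing cells of the liver, share several of these collagens. Their 10 markers summed to 319 CPM at 0 h (276 to 362), 14.2 CPM at 12 h (6.11 to 22) and 24.3 CPM at 96 h (15.5 to 30), with Gli1 and Pi16 at 0 at 0 h and with Gli1, Entpd2, Mfap4, Clec3b and Pi16 at 0 at 96 h. Most of the sum at 0 h came from Clec3b (194 CPM) and Eln (64.6 CPM). Most of that at 96 h came from Fbln2, which averaged 7.28 CPM at 0 h and 19.7 CPM at 96 h. Of the 7 portal fibroblast markers tested, 2 were lower at 12 h than at 0 h. Mesothelial and cholangiocyte markers stayed at or under 13.7 and 6.06 CPM in every sample. The part of these cells in the collagen values was not tested, and in bulk RNA fewer cells of a type and less RNA per cell cannot be told apart.

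Each gene was compared between times with the quasi-likelihood F test of edgeR in a single fit over all 19 samples, and a gene was called when its Benjamini-Hochberg adjusted p over all 15138 genes was below 0.1 and its fold change above 2. The 6 comparisons with 0 h share the same pair of 0 h samples. No interstitial collagen gene was called at 3 h against 0 h by edgeR, where 4.19% of all genes tested were higher and 1.39% lower. At an unadjusted p below 0.05 the count was 2 (Col3a1 and Col5a2), and DESeq2 called 1, Col3a1. At 6 h, 3 of the 10 genes (Col1a1, Col1a2 and Col3a1) were lower and none was higher, while 4.35% of all genes tested were lower and 6.98% higher. Lower levels were called for 9 of 10 after 12 h (9.1% of all genes lower, 8.6% higher), and for 9 of 10 after 18 h, when 1 was higher (8.21% lower, 7.64% higher). After 24 h, 6 were lower and 1 was higher (3.86% and 5.65% of all genes), and after 96 h, 4 were lower and 2 were higher (5.03% and 5.83%). The median log2 fold change over the 10 genes against 0 h ran 0, -1.15, -3.42, -4.16, -3.68 and -1.57 through the 6 culture times, beside 0 to 0.07 over all genes tested. With Col5a3 set to the floor of 3 counts, which covers counting error only, the median at 18 h was -4.13. Groups did not overlap for all 10 genes at 12 h and at 96 h against 0 h, where 43.2% and 41.9% of all genes tested did not overlap either.

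Between cultured samples, which do not share the 0 h cells, 9 of the 10 genes were lower and 1 (Col5a2) was higher at 12 h than at 3 h, while 7.9% of all genes were lower and 6.46% higher. The low-level genes Col5a3 and Col6a2 lost this call without replicate 3 of the 12 h group (adjusted p = 0.103 and 0.106). From 12 h to 96 h, 6 genes rose and 1 (Col14a1) fell, with 6.96% of all genes higher and 6.57% lower. From 24 h to 96 h, 4 genes rose and none fell, with 1.37% of all genes higher and 1.35% lower. Their median log2 fold changes were -2.97, 1.85 and 1.65, beside -0.05, 0.09 and 0 over all genes.

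**Figure D2:**
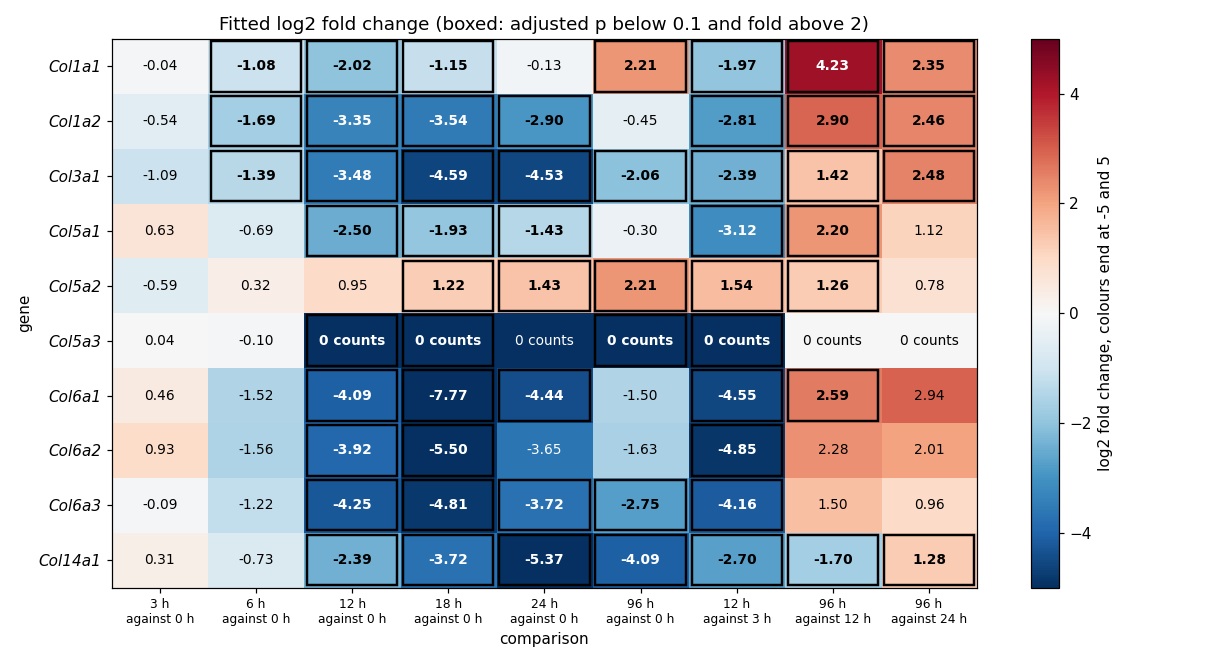
Fitted log2 fold changes of the 10 genes (rows) in the 9 comparisons (columns), first time minus second time, with boxes around the calls; cells in which Col5a3 had no count in any sample of the later time read 0 counts. At 12 h and 18 h against 0 h every gene with a printed value is blue except Col5a2, which is red in both columns.

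**Figure D3:**
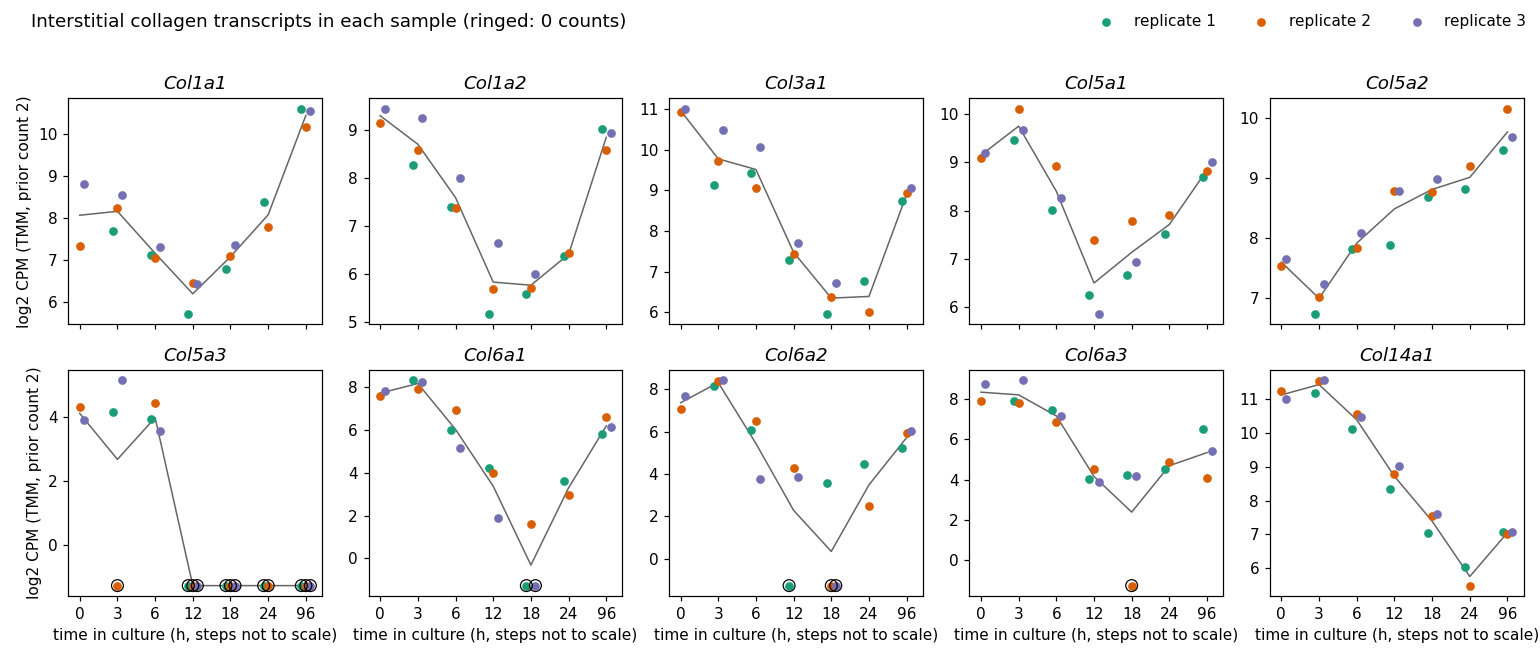
Level of each gene in each sample as log2 CPM with a prior count of 2, coloured by replicate number, with the mean as a grey line and samples without a count ringed; each panel has its own axis. Most panels dip at 12 to 24 h and recover in part at 96 h, whereas Col5a2 climbs from 3 h to 96 h, Col14a1 stays low and Col5a3 is at 0 from 12 h on.

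The 2 chains of collagen I followed different courses. Col1a1 (ENSMUSG00000001506, chromosome 11, GRCm38, 94936224 to 94953042, plus strand) stood at 161.5 CPM in replicate 2 and 447 CPM in replicate 3 at 0 h. It stood at 209, 301 and 376 CPM in replicates 1, 2 and 3 at 3 h and at 139, 133 and 159 CPM at 6 h. The lowest values came at 12 h, with 52.1, 87.5 and 85.5 CPM. Col1a1 was then at 110, 138 and 164 CPM at 18 h, at 334 and 220 CPM (replicates 1 and 2) at 24 h and at 1570, 1163 and 1502 CPM at 96 h. The 96 h samples stood above all others, the 12 h samples below all others, and the means at 0, 3 and 24 h differed by less than the spread between samples.

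Col1a1 was lower at 12 h than at 0 h (75 ± 19.9 against 304 ± 202 CPM; log2 fold change -2.02, SE 0.36, adjusted p = 0.00104 by edgeR). It was 4.64 times its 0 h level at 96 h (1411 ± 218 CPM; log2 fold change 2.21, SE 0.39, adjusted p = 0.0015) and rose by 4.23 on the log2 scale from 12 h to 96 h (SE 0.37, adjusted p = 1.75e-06). From 24 h to 96 h it rose by 2.35 (adjusted p = 0.004). Without replicate 2 of the 24 h group the log2 fold change was 2.07 and no longer passed the test (adjusted p = 0.137). The sizes against 0 h moved with the 0 h sample of replicate 3. Without it the log2 fold change was 3.13 at 96 h and -1.12 at 12 h (adjusted p = 0.000342 and 0.0595), and without the 0 h sample of replicate 2 it was 1.65 and -2.57. Within replicates 2 and 3 the log2 CPM differed by 2.85 and 1.75 at 96 h and by -0.88 and -2.38 at 12 h. The lower levels at 6 h (-1.08, adjusted p = 0.0761) and 18 h (-1.15, adjusted p = 0.0467) rested on the same sample, without which the log2 fold changes were -0.20 and -0.28 (adjusted p = 0.871 and 0.778). With replicate number as a block these calls were lost too (adjusted p = 0.105 at 6 h; log2 fold change -0.99 at 18 h), and with library size alone as the scale that at 18 h was lost (-0.94, adjusted p = 0.108). The call at 6 h was also lost without any 1 of the 6 h samples (adjusted p of 0.121 to 0.162) and that at 18 h without replicate 1 of the 18 h group (0.142), while without replicate 2 of the 0 h group the latter was -1.77.

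Col1a2 (ENSMUSG00000029661, chromosome 6, 4504814 to 4541544, plus strand) stood at 566 and 696.5 CPM in replicates 2 and 3 at 0 h and at 307, 382 and 612 CPM in replicates 1, 2 and 3 at 3 h. It stood at 168, 166 and 253 CPM at 6 h, at 35.2, 50.9 and 99 CPM at 12 h and at 47.3, 51.9 and 63.1 CPM at 18 h. At 24 h it was at 82.2 and 86.3 CPM and at 96 h at 516, 382 and 491 CPM. Every sample from 6 to 24 h lay below every 96 h sample, and all 96 h samples lay below both 0 h samples.

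Col1a2 was lower than at 0 h in all comparisons from 6 to 24 h. Its log2 fold change was -1.69 at 6 h (SE 0.36, adjusted p = 0.00589), -3.35 at 12 h (SE 0.37, adjusted p = 1.24e-05), -3.54 at 18 h (adjusted p = 8.16e-06) and -2.9 after 24 h (adjusted p = 0.000298). It rose by 2.9 from 12 h to 96 h (SE 0.35, adjusted p = 3.67e-05) and by 2.46 from 24 h to 96 h (adjusted p = 0.00313). At 96 h it did not pass the test against 0 h (463 ± 71.5 against 631 ± 92.1 CPM; log2 fold change -0.45, SE 0.36, adjusted p = 0.511).

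The ratio of Col1a1 to Col1a2 counts therefore shifted within the pair over time. Its log2 value was -1.81 and -0.64 in the 0 h samples, -0.56, -0.35 and -0.7 in replicates 1, 2 and 3 at 3 h, and 0.56, 0.78 and -0.21 at 12 h. It was 1.21, 1.41 and 1.37 at 18 h, 2.02 and 1.35 at 24 h, and 1.6, 1.61 and 1.61 at 96 h. All samples from 18 h on lay above all earlier samples. The mean went from -1.23 ± 0.83 (SD, n = 2) at 0 h to 1.61 ± 0.01 (n = 3) at 96 h, which are ratios of 0.428 and 3.05.

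Col3a1, the only chain of collagen III, fell through the first 18 h and came back in part by 96 h. The gene (ENSMUSG00000026043, chromosome 1, 45311538 to 45349706, plus strand) stood at 1932 and 2067 CPM in replicates 2 and 3 at 0 h and at 563, 839 and 1422 CPM in replicates 1, 2 and 3 at 3 h. It stood at 688, 532 and 1065 CPM at 6 h, at 157, 172 and 208 CPM at 12 h and at 61.7, 82.6 and 105 CPM at 18 h. At 24 h it was at 109 and 64.3 CPM, and at 96 h at 424, 486 and 530 CPM. No cultured sample reached a 0 h sample, and the 96 h samples stood above all samples from 12 to 24 h.

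The fall of Col3a1 at 3 h missed the threshold (log2 fold change -1.09, SE 0.35, adjusted p = 0.108) but passed it with replicate number as a block (-1.06, adjusted p = 0.0408) and without replicate 3 of the 3 h group (-1.48, adjusted p = 0.0232). Later log2 fold changes of Col3a1 were -1.39 at 6 h (adjusted p = 0.0174), -3.48 at 12 h (SE 0.36, adjusted p = 6.47e-06), -4.59 at 18 h (SE 0.38, adjusted p = 6.73e-07) and -4.53 after 24 h (adjusted p = 7.58e-06). It rose from 24 h to 96 h by 2.48 (SE 0.39, adjusted p = 0.00255) and from 12 h by 1.42 (adjusted p = 0.00826), and was still lower than at 0 h at 96 h (-2.06, SE 0.35, adjusted p = 0.00104). The log2 ratio of Col3a1 to Col1a1 counts went from 2.21 and 3.58 in the 0 h samples to between -1.89 and -1.26 in the 96 h samples.

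The 3 chains of collagen V took 3 different courses. Col5a1 (ENSMUSG00000026837, chromosome 2, 27886425 to 28039514, plus strand) encodes the chain that is common to the collagen V molecules, and stood at 546 and 588.5 CPM in replicates 2 and 3 at 0 h. It was at 702, 1108 and 819 CPM in replicates 1, 2 and 3 at 3 h, at 259, 488 and 305 CPM at 6 h and at 75.5, 168 and 57.5 CPM at 12 h. It stood at 102, 222 and 122 CPM at 18 h, at 184 and 239 CPM at 24 h and at 416, 450 and 516 CPM at 96 h. At 3 h every sample lay above both 0 h samples, from 12 h to 24 h every sample lay below every 96 h sample, and within each of 3, 6, 12 and 18 h replicate 2 had the highest value.

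Col5a1 did not pass the test at 3 h (log2 fold change 0.63, SE 0.42, adjusted p = 0.515). It was lower at 12 h (-2.5, SE 0.41, adjusted p = 0.000497) and at 18 h (-1.93, SE 0.41, adjusted p = 0.00423). At 24 h it was lower (-1.43, adjusted p = 0.0752), a call that was lost without any 1 of the 0 h or 24 h samples (adjusted p of 0.182 to 0.373). Col5a1 rose by 2.2 from 12 h to 96 h (SE 0.38, adjusted p = 0.00106). Without replicate 2 of the 12 h group these values were -3.12 at 12 h against 0 h and 2.81 from 12 h to 96 h. The step from 24 h to 96 h (1.12, adjusted p = 0.273) passed the test with replicate number as a block (1.21, adjusted p = 0.0675), and between 96 h and 0 h the log2 fold change was -0.3 (SE 0.41, adjusted p = 0.756).

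Col5a2, the chain that pairs with Col5a1 in the common form of collagen V, was the only interstitial collagen called above its 0 h level within 24 h. The gene (ENSMUSG00000026042, chromosome 1, 45374321 to 45503282, minus strand) stood at 185.5 and 201 CPM in replicates 2 and 3 at 0 h and at 105.5, 128.5 and 150 CPM in replicates 1, 2 and 3 at 3 h. It stood at 226, 228 and 271 CPM at 6 h, at 236, 442 and 440 CPM at 12 h and at 410, 435 and 506.5 CPM at 18 h. At 24 h it was at 452 and 589.5 CPM and at 96 h at 706, 1146 and 825 CPM. Every 3 h sample lay below both 0 h samples and every sample from 6 h on lay above them.

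Against 0 h, Col5a2 was higher by 0.95 on the log2 scale at 12 h, short of the fold threshold (SE 0.27, adjusted p = 0.0286). With replicate number as a block it was called at 12 h (1.05, adjusted p = 0.00377), as it was without replicate 1 of the 12 h group (1.19, adjusted p = 0.00362). It was higher by 1.22 at 18 h (SE 0.28, adjusted p = 0.00724). DESeq2, and edgeR with the size factors of DESeq2, both placed this just under the fold threshold (0.98), so the call at 18 h depended on the scaling. Col5a2 was higher by 1.43 at 24 h (SE 0.3, adjusted p = 0.0055) and by 2.21 at 96 h (SE 0.29, adjusted p = 9.42e-05), where it stood at 892 ± 228 CPM against 193 ± 10.8 CPM at 0 h. The rise from 3 h to 12 h was 1.54 (SE 0.24, adjusted p = 0.000511) and that from 12 h to 96 h was 1.26 (SE 0.24, adjusted p = 0.00225). A gene model of unknown product on the same strand, Gm38211, lies inside Col5a2 and had 2368 counts in all, against 39885 for Col5a2.

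The log2 ratio of Col5a1 to Col5a2 counts was 1.55 and 1.56 in the 0 h samples and 2.45 to 3.11 at 3 h. It was -2.94 to -1.39 at 12 h, -2.05 to -0.97 at 18 h, -1.3 in both 24 h samples and -1.35 to -0.68 at 96 h. The samples at 0, 3 and 6 h were all above 0 and those from 12 h on were all below it. The mean ratio went from 6.79 at 3 h to 0.252 at 12 h.

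**Figure D4:**
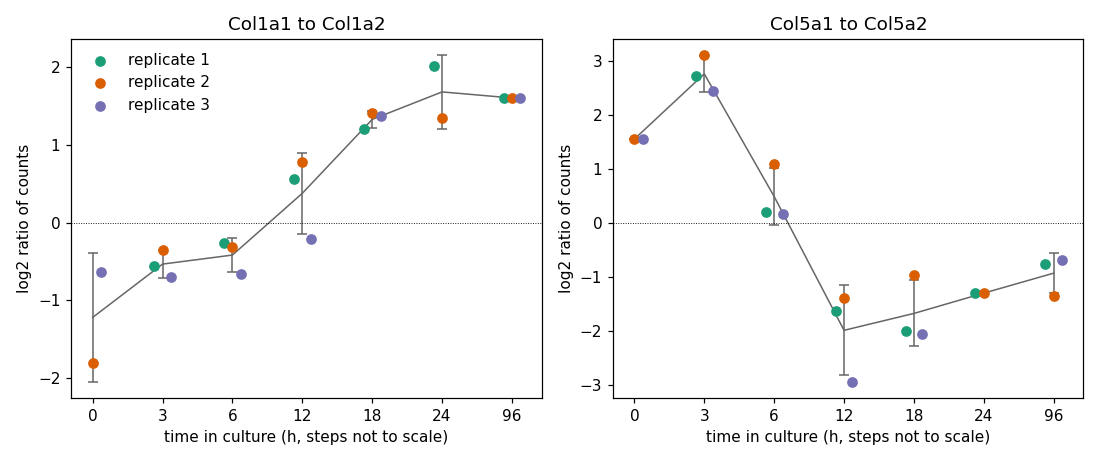
Log2 ratio of the counts of the 2 chains in each sample by time in culture, with the mean and the SD as a grey line with bars and equal counts dotted. Col1a1 to Col1a2 climbs from a mean of -1.23 at 0 h to 1.61 at 96 h, and Col5a1 to Col5a2 drops from 2.76 at 3 h to -1.99 at 12 h.

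Col5a3 (ENSMUSG00000004098, chromosome 9, 20770050 to 20815067, minus strand), a chain of a rarer form of collagen V, was at 14.6 and 19.6 CPM in the 0 h samples. It was at 17.3, 0 and 35.3 CPM in replicates 1, 2 and 3 at 3 h and at 14.8, 21.3 and 11.5 CPM at 6 h. From 12 h on it had no count in any of the 11 samples. The 0 h level was 17.1 ± 3.53 CPM. With 3 counts per library as the floor, it was 24.6-fold above the floor at 12 h and 19.8-fold above that at 96 h. This floor covers counting error only. At 3 h, replicate 2 had 0 counts beside 52 and 162 counts in replicates 1 and 3. A count of 0 therefore does not by itself limit the level, and these folds are not firm lower bounds. The calls at 12 h and 18 h had adjusted p-values of 0.0376 and 0.0432 by edgeR. The call at 96 h (0.0569) was lost with replicate number as a block (0.127) and without any 1 of the 0 h or 96 h samples (0.109 to 0.139), the call at 18 h without replicate 2 of the 0 h group (0.1), and at 24 h the adjusted p was 0.115 by edgeR and 0.0289 by DESeq2.

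Promoter sequences for Col3a1, Col5a1 and Col5a3 are shown because Col3a1 and Col5a1 rose between 12 h and 96 h while Col5a3 had no count at either time. They are the 250 bases before the transcript start in RefSeq (GRCm38.p6), read 5' to 3' on the strand of the gene, with matches to any of 5 short motifs on either strand in capitals. Col3a1 lies at chr1:45311288-45311537 on the plus strand, Col5a1 at chr2:27886175-27886424 on the plus strand and Col5a3 at chr9:20815068-20815317 on the minus strand.
Col3a1: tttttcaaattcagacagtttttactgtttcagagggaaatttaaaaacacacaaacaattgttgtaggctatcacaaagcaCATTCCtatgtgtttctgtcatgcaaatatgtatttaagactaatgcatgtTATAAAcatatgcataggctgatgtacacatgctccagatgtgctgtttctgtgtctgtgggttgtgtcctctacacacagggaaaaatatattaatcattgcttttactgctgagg
Col5a1: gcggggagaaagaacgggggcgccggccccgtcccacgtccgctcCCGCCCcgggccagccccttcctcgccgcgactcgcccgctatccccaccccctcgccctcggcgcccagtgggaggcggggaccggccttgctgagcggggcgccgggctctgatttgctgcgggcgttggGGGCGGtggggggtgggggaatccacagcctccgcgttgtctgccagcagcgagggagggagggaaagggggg
Col5a3: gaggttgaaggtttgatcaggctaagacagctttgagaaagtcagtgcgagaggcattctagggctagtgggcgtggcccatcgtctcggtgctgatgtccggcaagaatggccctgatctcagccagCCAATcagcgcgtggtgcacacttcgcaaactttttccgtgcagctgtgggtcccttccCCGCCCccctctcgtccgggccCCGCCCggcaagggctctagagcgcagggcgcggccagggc
The Col3a1 stretch held TATAAA, the letters of a TATA box, 117 bases before the start, and this motif was found in 12.4% of 32851 promoter stretches of this length in the mouse table. It also held CATTCC, the core bound by TEAD factors (12.6% of stretches), 168 bases before the start. Both Col5a1 and Col5a3 held 2 copies of GGGCGG, a GC box (32.7% of stretches). Col5a3 also held CCAAT, the CCAAT box (33.8%). The AP-1 motif TGANTCA (6.75%) was in none of these 3 stretches. Over the 8 stretches of the 7 collagen genes that matched the table, GGGCGG was in 5, CCAAT and CATTCC in 2 each, and TATAAA and TGANTCA in 1 each. Col6a2 gave 2 of these stretches, which overlap and both held GGGCGG. Annotated exons took up 226 of the 250 bases in 1 of them, 127 in that of Col1a2 and 124 in that of Col6a1. Col1a1, Col5a2 and Col14a1 were not matched. None of the 5 motifs contains another, and a match is a description of the letters only.

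All 3 collagen VI genes were lower at 12 h and at 18 h than at 0 h, and Col6a1 averaged 0.877 CPM at 18 h. Col6a1 (ENSMUSG00000001119, chromosome 10, 76708792 to 76726168, minus strand) stood at 193 and 227 CPM in replicates 2 and 3 at 0 h and at 321.5, 241 and 305 CPM in replicates 1, 2 and 3 at 3 h. It was at 64.1, 120 and 35.1 CPM at 6 h, at 18.5, 15.3 and 3.34 CPM at 12 h and at 0, 2.63 and 0 CPM at 18 h. At 24 h it stood at 12 and 7.33 CPM and at 96 h at 55.6, 96.6 and 70.4 CPM. The 3 h samples lay above both 0 h samples, and the 96 h samples lay above every sample from 12 to 24 h and below both 0 h samples.

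The log2 fold change of Col6a1 was -4.09 at 12 h (SE 0.88, adjusted p = 0.00446), -7.77 at 18 h (SE 1.06, adjusted p = 9.55e-05) and -4.44 after 24 h (SE 1.06, adjusted p = 0.0137), the last of which was lost without replicate 2 of the 24 h group (adjusted p = 0.165). Of the 18 h samples, replicate 2 had 15 counts of Col6a1 and the others had none, so the fitted size at 18 h is uncertain. It rose by 2.59 from 12 h to 96 h (SE 0.8, adjusted p = 0.0473). This call was lost without replicate 3 or replicate 2 of the 12 h group (adjusted p = 0.149 and 0.102) or without replicate 2 of the 96 h group (0.117). The step from 24 h to 96 h (2.94, adjusted p = 0.164 by edgeR) was called by DESeq2 (adjusted p = 0.00768), after thinning to equal depth (0.0387) and in a fit of these 2 groups alone (0.0346). Between 96 h and 0 h it differed by -1.5 on that scale (SE 0.82, adjusted p = 0.31), and a fit of these 2 groups alone called it (-1.5, adjusted p = 0.0276).

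Col6a2 (ENSMUSG00000020241, chromosome 10, 76595762 to 76623630, minus strand), whose chain joins those of Col6a1 and Col6a3 in 1 molecule, ranged from 133 to 202 CPM at 0 h and from 280 to 346 CPM at 3 h. It ranged from 13 to 91.3 CPM at 6 h, from 0 to 18.8 CPM at 12 h, from 0 to 11.5 CPM at 18 h, from 5.27 to 21.7 CPM at 24 h and from 36.4 to 64.5 CPM at 96 h. Its lower level at 18 h passed the test (log2 fold change -5.5, SE 1.56, adjusted p = 0.0284). That at 12 h (-3.92, SE 1.44, adjusted p = 0.0856) was lost with replicate number as a block (adjusted p = 0.112) and without any 1 of the 0 h or 12 h samples (0.127 to 0.222). Against 3 h it was lower at 12 h (-4.85, adjusted p = 0.0386; -5.48 without replicate 2 of the 12 h group), a call that was lost without replicate 3 of the 12 h group (adjusted p = 0.106). Of the 18 h samples, replicate 1 had 47 counts and the others had none, so the fitted size at 18 h is uncertain, and without replicate 3 of that group it was -4.9 (adjusted p = 0.0729). Between 96 h and 0 h the difference missed the test (-1.63, adjusted p = 0.528) and was called in a fit of these 2 groups alone (-1.64, adjusted p = 0.0352). The rise from 12 h to 96 h did not pass the test (2.28, SE 1.3, adjusted p = 0.281).

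Counts of the collagen VI genes were uneven at low levels. Replicate 1 of the 12 h group had 80 counts of Col6a1 and 0 of Col6a2, whereas replicate 1 of the 18 h group had 0 and 47. The log2 ratio of Col6a1 to Col6a2 was -0.47 to 0.54 in the 0 h and 3 h samples and 0.13 to 0.67 at 96 h, but ran from -2.05 to 7.33 at 12 h and from -6.57 to 4.95 at 18 h.

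Col6a3 (ENSMUSG00000048126, chromosome 1, 90765923 to 90843971, minus strand) stood at 242 and 434 CPM in the 0 h samples and ranged from 222 to 492.5 CPM at 3 h and from 114 to 178 CPM at 6 h. It ranged from 14.5 to 22.6 CPM at 12 h, from 0 to 18.3 CPM at 18 h and from 22.3 to 28.9 CPM at 24 h. At 96 h it was at 91.5, 16.4 and 42.6 CPM in replicates 1, 2 and 3, a range that overlaps those at 12 h and 24 h. Col6a3 was lower than at 0 h after 12 h (-4.25, SE 0.99, adjusted p = 0.00783) and 18 h (-4.81, SE 1.02, adjusted p = 0.0044). Its calls at 24 h (-3.72, adjusted p = 0.0604) and 96 h (-2.75, adjusted p = 0.0893) each depended on single samples. That at 24 h was lost without replicate 3 of the 0 h group (adjusted p = 0.208) or either 24 h sample (0.323 and 0.289), and that at 96 h without either 0 h sample (0.341 and 0.145) or without replicate 3 or 2 of the 96 h group (0.222 and 0.239), while without replicate 1 of the 96 h group it was -3.51. From 12 h to 96 h the log2 fold change was 1.5 (SE 0.86, adjusted p = 0.289).

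Col14a1 was lower at each time from 6 h to 24 h than at the time before, and at 96 h it was still far below its 0 h level. The gene (ENSMUSG00000022371, chromosome 15, 55307750 to 55520803, plus strand) stood at 2452 and 2056 CPM in replicates 2 and 3 at 0 h and at 2334, 3009 and 3051 CPM in replicates 1, 2 and 3 at 3 h. It stood at 1117, 1525 and 1438 CPM at 6 h, at 322, 444 and 525 CPM at 12 h and at 130, 187 and 194 CPM at 18 h. At 24 h it was at 64.6 and 44.4 CPM and at 96 h at 135, 129 and 133 CPM. From 6 h on each time lay wholly below the one before it up to 24 h, and the 96 h samples lay above the 24 h samples and overlapped the range at 18 h.

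The log2 fold change of Col14a1 against 0 h was -0.73 at 6 h, short of the fold threshold (SE 0.23, adjusted p = 0.0598). It was -2.39 at 12 h (SE 0.23, adjusted p = 3.02e-06), -3.72 at 18 h (SE 0.24, adjusted p = 9.9e-08), -5.37 after 24 h (SE 0.31, adjusted p = 3.58e-08) and -4.09 after 96 h (SE 0.24, adjusted p = 3.31e-08). It was the only interstitial collagen called lower at 96 h than at 12 h (-1.7, SE 0.21, adjusted p = 5.99e-05). From 24 h to 96 h it was higher by 1.28 (SE 0.24, adjusted p = 0.00929), a call lost without replicate 2 of the 24 h group (1.03, adjusted p = 0.261).

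The late changes were also read within each replicate number. From 12 h to 96 h, the log2 CPM of Col1a1 rose by 4.9, 3.73 and 4.13 in replicates 1, 2 and 3, that of Col1a2 by 3.86, 2.9 and 2.31 and that of Col3a1 by 1.43, 1.5 and 1.35. That of Col5a1 rose by 2.46, 1.42 and 3.16 and that of Col5a2 by 1.58, 1.37 and 0.9. Col14a1 differed by -1.25, -1.78 and -1.98. Col6a3 was the exception among the detected genes, with 2.49, -0.45 and 1.52.

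Some of these genes are neighbours in the genome. Col3a1 and Col5a2 lie tail to tail on chromosome 1, 24614 bases apart with no annotated gene between them, and they moved in opposite directions at 18 h and 24 h against 0 h. Col6a2 and Col6a1 lie on the same strand of chromosome 10, 85161 bases apart with 1 gene between them, and both fell at 12 h and 18 h.

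Across the 19 samples, which share times and replicate numbers, log2 CPM of Col1a2 went most closely with Col3a1 (Pearson r = 0.88) and Col5a1 (0.84) and less with Col1a1 (0.7). Col5a2 had a negative r with 8 of the other genes, down to -0.86 with Col14a1, and a positive r only with Col1a1 (0.41). With the mean standardized profile of the 10 genes, to which each of them contributes, r was 0.95 for Col1a2, 0.93 for Col3a1, 0.9 for Col6a1, 0.56 for Col1a1 and -0.4 for Col5a2. The 8 other genes of at least 10 CPM with the highest r to that profile were Tshz2 and Mxra8 (0.965 each), Tmem176b (0.962), Scarb2 (0.96), Ccbe1 (0.955), Prelp (0.953), Gpx1 and Zbtb20 (0.948 each). Prelp, a small leucine-rich proteoglycan of the matrix, went from a mean of 1717 CPM at 0 h to 83.6 CPM at 12 h and 479 CPM at 96 h. Mxra8, a matrix-remodelling associated protein of the membrane, went from 394 to 2.88 and 134 CPM.

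The other genes on which collagen fibrils depend were taken as lists. Each list's count is given at 12 h against 0 h and at 96 h against 12 h. Over all genes tested, 8.6% were higher and 9.1% lower in the first comparison, and 6.96% higher and 6.57% lower in the second. Of 9 tested genes of other fibrillar and fibril-associated collagens, 1 was lower at 12 h, and 1, Col27a1, was higher at 96 h (26.2 ± 15.6 against 2.93 ± 2.24 CPM; log2 fold change 3.15, adjusted p = 0.0221 by edgeR). Of 9 tested genes of basement membrane, network and other collagens, 2 were higher and 1 was lower at 12 h, and 2 were higher at 96 h. These were Col8a1, a network-forming collagen (585 ± 61.5 against 27.8 ± 12.2 CPM; log2 fold change 4.39, SE 0.53, adjusted p = 3.55e-05), and Col18a1, at 2.34 ± 2.06 CPM at 96 h and without a count at 12 h. The 96 h samples ran from 0 to 3.87 CPM of Col18a1, which stood at 45.2 ± 7.85 CPM at 0 h. The median log2 fold changes from 12 h to 96 h were 0 and 1.91 in these lists, beside 0.09 over all genes and 1.85 over the interstitial collagens. The median of 1.91 includes genes at low levels, such as Col7a1 (means of 1.58 CPM at 12 h and 5.99 CPM at 96 h), which was not called. Col4a1 averaged 3236 CPM at 12 h and 2354 CPM at 96 h, and Col4a2 averaged 1462 and 1435 CPM. Neither was called in this interval.

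Among 22 tested genes of procollagen folding and export, 4 were higher and 3 lower at 12 h than at 0 h, and 5 were higher and 2 lower at 96 h than at 12 h (median log2 fold change 1.15). Fkbp10, a prolyl isomerase of the endoplasmic reticulum, rose by 2.75 (161 ± 60.7 against 23.9 ± 6.87 CPM; adjusted p = 0.00554) and P4ha1, a catalytic subunit of prolyl 4-hydroxylase, by 1.48 (adjusted p = 0.000894). Creb3l1, a transcription factor that acts on collagen genes, fell by 2.22 over the same interval (adjusted p = 0.000169), and Mia2, an export receptor, fell by 1.91 (adjusted p = 0.00122). Of 6 tested genes of propeptide removal, 1 was lower at 12 h than at 0 h, and 1, the enhancer Pcolce, was higher at 96 h than at 12 h (295 ± 55.4 against 18.5 ± 0.995 CPM; log2 fold change 3.99, adjusted p = 0.0195).

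Of 15 tested small leucine-rich proteoglycans and fibril partners, 7 were lower and 1 higher at 12 h than at 0 h (median -2.41 on the log2 scale). From 12 h to 96 h, 5 were higher and 1 was lower (median 0.97). Ogn, a small proteoglycan, rose by 4.63 (adjusted p = 0.0066), Tnxb, which bridges fibrils, was at 21.8 ± 1.22 CPM at 96 h and without a count at 12 h, and Thbs1, a matricellular protein, fell by 1.22 (adjusted p = 0.0561). Of 10 tested receptors, 3 were lower at 12 h than at 0 h, and 2 were higher and 1 lower at 96 h than at 12 h. Mrc2, which takes up collagen, was at 22.5 ± 17.8 CPM at 96 h and without a count at 12 h, Antxr1 rose by 2.73 (adjusted p = 0.0819), and Ddr2, a kinase that binds fibrillar collagen, fell by 1.88 (598 ± 54.8 to 163 ± 18.2 CPM; adjusted p = 1.65e-05).

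The vascular smooth muscle list (Myh11, Cnn1, Acta2 and Tagln), which culture-activated HSCs also express in part, summed to 309 CPM at 0 h, 1459 CPM at 12 h and 4256 CPM at 96 h (3413 to 5020). Of the 4 markers, 1 was higher at 12 h than at 0 h, 1 at 96 h than at 12 h, and 2 at 96 h than at 0 h. Over all genes tested, 8.6%, 6.96% and 5.83% were higher in these comparisons. Acta2, smooth muscle actin, averaged 94.6 CPM at 0 h, 93.1 CPM at 12 h, 229 CPM at 24 h and 3169 CPM at 96 h, and its log2 fold change was -0.01 at 12 h against 0 h and 5.09 at 96 h against 12 h (adjusted p = 1.75e-06). Tagln, an actin-binding protein, averaged 198 CPM at 0 h, 1352 CPM at 12 h and 1002 CPM at 96 h, which is most of the summed level at 12 h (log2 fold change 2.78 against 0 h, adjusted p = 0.000191). Whether contaminating muscle cells had a part in these values was not tested.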

How the data were processed

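QuantSeq 3' FWD libraries of 19 HSC samples were used. The authors deposited 1 matrix of raw gene counts, whole numbers per Ensembl gene. The submitters' processing notes name mm10, STAR and StringTie, and the tool and strand setting behind the counts are not given in the sources used here, so reads of overlapping genes cannot be told apart. Groups are the culture times in the labels. Counts were filtered with filterByExpr, scaled by TMM and tested with glmQLFit and glmQLFTest of edgeR 4.0.16 (R 4.3.3) in 1 fit of 19 samples with time as the only factor; calls needed a Benjamini-Hochberg adjusted p below 0.1 over 15138 genes and a fold change above 2. The biological coefficient of variation was 1.06. The script was tested on simulated counts. Alternatives were DESeq2 1.42.0, other scaling, no filter, thinning, 2-group fits, replicate number or isolation date in the model, and leaving out samples. Chain ratios are log2 of counts plus 0.5. Same-numbered samples share an isolation date per the labels, as do those of replicates 1 and 3. Residuals over all genes tested correlated at 0.014 on average for same-numbered samples (51 pairs). For pairs of other numbers, some of them of 1 date, the average was -0.007 (103 pairs). These averages do not measure pairing in the collagens alone. Total counts were 2073171 to 7690892, and shallower samples carry more counting error. The study describes independent repeats, without saying which animals gave each, so p-values measure the spread between these samples. Named genes were the 10 collagens, up to 2 genes called higher and up to 2 called lower from 12 h to 96 h per list (largest fold, mean of at least 10 CPM) and the 8 genes most like the collagens' mean profile. The collagens and lists were chosen with earlier results of these data known. Coordinates are from GENCODE M21 (GRCm38) and sequences from RefSeq. Figures were drawn with matplotlib 3.10.9.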

Additional observations from a re-analysis of the deposited data

How the results depend on the processing

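Of 90 fold changes of the interstitial collagens, 56 were called, and none of these changed direction under any alternative run. Over 807 refits other than leaving out a sample, 755 kept direction and side of the threshold, 21 lost the call, 21 gained it and 10 changed sign. The count at 3 h against 0 h was 0, and 1 (Col3a1) with library size only, with DESeq2 size factors, with DESeq2, without a filter, with the replicate block, with the isolation date and after thinning; leaving out samples gave 0 to 1. Leaving out samples gave 4 to 6 genes at 24 h against 0 h, in place of 7, and 2 to 4 at 96 h against 24 h. From TMM-scaled CPM the share of counts was 0.128% at 24 h and 0.402% at 96 h. Sign changes were limited to values without a call. Col1a1 at 24 h against 0 h had a log2 fold change of 0.12 with library size only, 0.19 with the replicate block and -0.71 to 0.78 without single samples. At 3 h Col1a1 had 0.014 in the fit of 2 groups, 0.105 with the replicate block and -0.57 to 0.86 without single samples. Col5a3 at 3 h had -0.05 with DESeq2 size factors, -0.049 with DESeq2, -0.19 with the replicate block, -0.21 with the isolation date, -0.042 after thinning and -0.94 to 0.66 without single samples. Col5a3 at 6 h had 0.004 in the fit of 2 groups and -0.42 to 0.12 without single samples, and Col6a3 at 3 h had -0.53 to 0.38. The cause was not tested. Besides calls named with the results, library size only lost Col5a1 at 24 h and Col6a3 at 96 h against 0 h, fits of 2 groups lost Col1a1 at 6 h, Col6a2 at 12 h and Col1a1, Col6a2 and Col6a3 at 18 h, the isolation date lost Col6a2 at 12 h, and an adjusted p below 0.05 lost 6 calls. At 12 h against 3 h, Col5a3 was lost in the fit of 2 groups. Fits of 2 groups gained Col5a3 and Col6a2 at 24 h against 0 h and Col5a1 at 96 h against 24 h, DESeq2 and the isolation date also gained the last, and library size only gained Col5a2 at 12 h. The replicate block changed the calls given beside the results and no other call. With 2 samples at 0 h and at 24 h, and no count in single samples of Col5a3 and the collagen VI genes, calls on these are the least certain.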
